A study of Mus musculus with 16 samples.

Results

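The 38 genes described here encode the machinery of fatty acid oxidation and targets or regulators of the nuclear receptor PPAR-alpha. The rule lists them by name and uses no measured value. The list was nevertheless chosen with earlier results of these data known, so shares of calls among its genes are descriptions only. All 38 were found by symbol among the 24722 genes of the glomerular table and among the 34264 genes of the cortex table. They comprise 18 mitochondrial enzymes and carriers, 8 peroxisomal enzymes, Eci2 and Crat, which act in both organelles, Acad11, which was placed in neither, and 9 genes of fatty acid uptake, activation, thioester cleavage and regulation.

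The RNA-seq libraries came from glomeruli, the capillary tufts where blood is filtered, and from renal cortex, which consists mostly of tubules. The groups were diabetic glomeruli (HFD/STZ model), control glomeruli, diabetic cortex (HFD/STZ model) and control cortex, with 4 libraries each. All 16 libraries came from mice labelled wild type, aged 24 weeks and of batch 1. HFD/STZ stands for a high-fat diet with streptozotocin, which kills pancreatic beta cells, so the diet, the toxin and the diabetic state cannot be told apart. The sources used here do not give strain, sex or diet schedule. Nothing in the labels ties each library to its own animal, so the p-values cover the spread among these samples only, and that spread may be technical.

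Fatty acids enter mitochondria as acylcarnitines through the carnitine shuttle and are shortened there by repeated rounds of dehydrogenation, hydration, a further dehydrogenation and thiolytic cleavage, with the electrons passed on through the electron transfer flavoprotein. Peroxisomes run a parallel pathway for very long, branched and dicarboxylic chains and hand shortened products to mitochondria. Cells of the proximal tubule live largely on this oxidation, and PPAR-alpha with its coactivator PGC-1 alpha (Ppargc1a) raises the expression of genes on both routes.

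Depth, as total counts per library, ran from 36339294 to 40696477 in the diabetic and from 40001932 to 41876031 in the control glomerular libraries. In cortex it ran from 60628981 to 72352656 in the diabetic and from 57473100 to 69947387 in the control libraries. Diabetic glomerular libraries 1 and 4 and control glomerular libraries 3 and 4 resembled each other far more than the remaining pairs did, and each of these pairs was summed (samples 1+4 and 3+4), which left n = 3 against n = 3 in glomeruli and n = 4 against n = 4 in cortex. The tissue labels were checked against markers: 8 podocyte markers summed to 2200 to 4370 CPM (counts scaled to a library of 1e+06) in diabetic glomeruli and 4593 to 5778 CPM in control glomeruli, against 312 to 355 CPM in diabetic cortex and 349 to 382 CPM in control cortex. Several libraries stood apart. The 20 proximal tubule markers summed to 1566, 153 and 761 CPM in diabetic glomerular samples 1+4, 2 and 3, against 87.4, 106 and 82.1 CPM in control glomeruli, and 15 of the 19 tested were called higher (edgeR's quasi-likelihood test, adjusted p under 0.05). The 12 markers of distal nephron and collecting duct summed to 1744, 77.2 and 794 CPM in these 3 samples, against 76.1, 55.3 and 60.02 CPM in control glomeruli, and 8 of 11 tested were called higher. All 5 smooth muscle markers were called lower in diabetic glomeruli, at a summed 3445, 4050 and 6270 CPM against 19954, 18705 and 17503 CPM in controls, as were 2 of 6 mesangial and 2 of 8 podocyte markers. Values without diabetic glomerular libraries 1, 3 and 4, which leave sample 2 as the only diabetic sample, are given below as estimates without a test. Counts of calls from these fits are given only to show how results depend on the processing, and are not tested results. In cortex the proximal tubule markers summed to 22182 to 25027 CPM in diabetic samples and to 28180 to 29038 CPM in control samples 1, 2 and 3, while control cortex 4 had the lowest sum, 20196 CPM. In cortex 11 of the 20 were called lower and 1 higher, all 5 red blood cell markers were called lower, and 6 of 7 macrophage markers were called higher. Of all genes tested there, 10.8% were called higher and 9.29% lower. Control cortex 3 held adipocyte markers at 105 CPM and brown adipocyte markers at 65.6 CPM, while no other cortex library exceeded 3.94 and 0.322 CPM. In diabetic glomeruli the 1 adipocyte marker tested was called lower (log2 fold change -4.28), and 1 of 3 adrenal cortex markers tested was called higher. The part that these cells play in the results below was not tested. In bulk tissue, fewer cells of a type and less RNA per cell cannot be told apart.

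Stretches of promoter sequence (RefSeq, GRCm38.p6) are shown for some of the genes described below. A promoter window, 250 bases before and 50 after the start site, was matched for 32 of the 38 genes (34 windows). The first stretch is the 250 bases before the start of Ppargc1a (chr5:51567726-51567975, minus strand), which was called in both tissues, and capitals mark a short cyclic AMP response motif. The second is the 250 bases before the start of Fabp1 (chr6:71199629-71199878, plus strand), a liver-type carrier that is a textbook PPAR-alpha target, and capitals mark a DR1 element, the direct repeat to which PPAR-alpha binds with its partner RXR. The third lies between the starts of Hadha and Hadhb, which point away from each other (chr5:30155163-30155247, plus strand), and capitals mark the bases that fall in the promoter windows of both genes.
Ppargc1a: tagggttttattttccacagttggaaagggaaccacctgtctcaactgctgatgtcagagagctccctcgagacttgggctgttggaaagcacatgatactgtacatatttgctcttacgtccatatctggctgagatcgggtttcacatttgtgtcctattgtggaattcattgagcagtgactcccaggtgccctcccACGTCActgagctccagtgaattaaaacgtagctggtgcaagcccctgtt
Fabp1: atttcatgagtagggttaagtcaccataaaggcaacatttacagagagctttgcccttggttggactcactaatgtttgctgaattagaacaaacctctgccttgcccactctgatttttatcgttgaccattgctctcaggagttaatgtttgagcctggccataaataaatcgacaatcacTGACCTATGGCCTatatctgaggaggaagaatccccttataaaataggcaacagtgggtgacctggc
Hadha and Hadhb: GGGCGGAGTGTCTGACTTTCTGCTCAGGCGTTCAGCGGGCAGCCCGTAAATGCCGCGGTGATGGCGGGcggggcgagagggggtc

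Both strands of all 32851 promoter windows in the RefSeq table were searched for these letters. The exact DR1 element, AGGTCA repeated with 1 free base between the copies, was present in 13 windows (0.0396%), none of them of the 34. The looser form, AGGNCA repeated in the same way, contains every exact match and was found in 125 windows (0.381%), among them that of Fabp1 at position -67 from the start. The estrogen-related receptor element TCAAGGTCA, which contains the DR1 unit AGGTCA, was found in 139 windows (0.423%) and in none of the 34. The cyclic AMP motif TGACGT was found in 2468 windows (7.51%), among them those of Ppargc1a at position -50 and Ehhadh at -179. A match describes letters only, and a missing match says nothing of the factor.

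In diabetic glomeruli 8 of the 36 genes tested were called higher and 2 lower, beside 19.4% of all 15238 genes tested called higher and 18.2% called lower. The other 26 did not pass, and Cpt1b and Fabp1 were too low to test. The 8 were Acads, Echs1, Hadh, Eci1, Acox2, Acaa1b, Acot2 and Ppargc1a, and the 2 were Slc25a20 and Etfb. In diabetic cortex 7 of 38 were called higher (Cpt2, Acadvl, Decr1, Eci1, Etfb, Acaa1b and Acot2) and Ppargc1a was called lower, beside 10.8% and 9.29% of 19228 genes. The shares were therefore near or below the background in glomeruli and above it, for higher calls, in cortex. The median log2 change of the tested genes was 0.14 in glomeruli and 0.01 in cortex, beside 0.01 and -0.00 over all genes tested. When library totals replaced TMM scaling, the median of all genes moved to 0.20 in glomeruli and 0.04 in cortex, and changes on that scale are to be read relative to it. With library totals 12 of the list were called higher in glomeruli and 0 lower by edgeR, against 10 higher and 2 lower with DESeq2. The shares of all genes called with these settings are not given, so these counts are not read against a background.

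**Figure D1:**
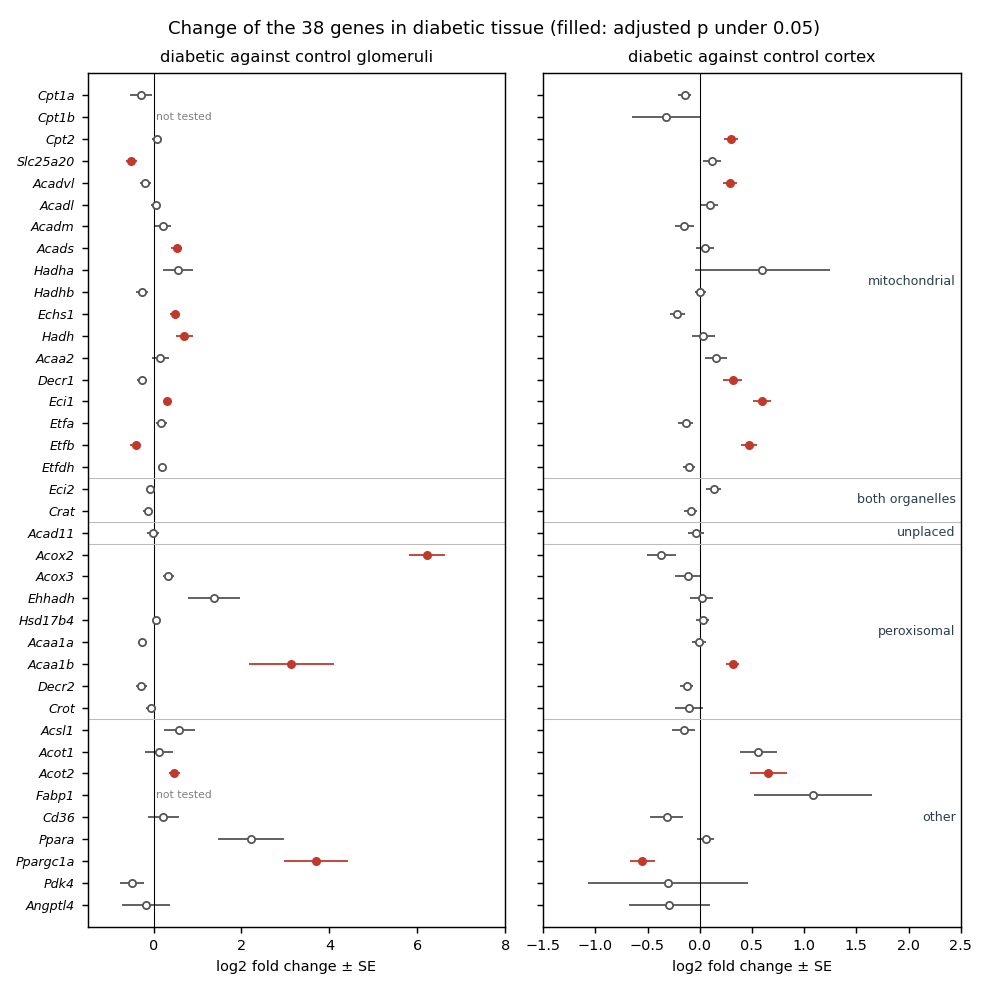
Log2 fold change (x axis, diabetic against control, ± SE) of the 38 genes (y axis) in glomeruli (left, n = 3 against 3) and cortex (right, n = 4 against 4), grouped by organelle, with filled red points for genes called by edgeR at an adjusted p under 0.05. Acox2, Ppargc1a and Acaa1b had the largest changes in glomeruli, at 6.22, 3.69 and 3.13, while the called cortex genes lay between -0.55 and 0.65. The 2 panels have different x scales.

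The carnitine shuttle did not move as a block. Slc25a20, the carrier that exchanges acylcarnitine for carnitine across the inner mitochondrial membrane (GRCm38 chromosome 9, 108662088 to 108684641), had 32.6, 31.0 and 38.4 CPM in diabetic glomeruli, against 55.4, 46.4 and 43.7 CPM in control glomeruli. The groups did not overlap, and the gene fell (log2 fold change -0.51 ± 0.13, adjusted p = 0.020). The call was lost with library totals (-0.32, adjusted p = 0.0576), with FPKM values (-0.31 to -0.32, 0.0541 to 0.0994) and without diabetic sample 1+4 or 2 (adjusted p = 0.0699 and 0.0632). In cortex the same gene was at 52.7 to 59.4 CPM in diabetic and 43.7 to 56.7 CPM in control samples and did not pass (0.11 ± 0.09, adjusted p = 0.403).

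Cpt1a, the outer membrane enzyme that makes acylcarnitine and sets the pace of mitochondrial uptake, had 136, 65.8 and 120 CPM in diabetic glomerular samples 1+4, 2 and 3, against 140, 127 and 123 CPM in controls (-0.28 ± 0.25, adjusted p = 0.419). Diabetic sample 2, the one with the fewest tubule markers, was the low one. Set alone against the controls, it differed by -0.96 on the log2 scale. In cortex Cpt1a had 462, 470, 448 and 415 CPM in diabetic and 478, 491, 501 and 514 CPM in control samples. All diabetic values lay below all control values, but the gene did not pass (-0.14 ± 0.06, adjusted p = 0.147).

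Cpt2, the inner membrane enzyme that turns acylcarnitine back into acyl-CoA, rose in cortex, at 247, 250, 239 and 215 CPM in diabetic and 192, 190, 203 and 187 CPM in control samples (0.30 ± 0.06, adjusted p = 0.0100). In glomeruli it had 34.2, 26.5 and 29.4 CPM in diabetic and 30.0, 26.1 and 29.5 CPM in control samples (0.07 ± 0.12, adjusted p = 0.660). Cpt1b, the muscle form of the outer membrane enzyme, was at 0.0228 to 0.122 CPM in diabetic glomeruli and 0 to 0.0269 CPM in control glomeruli, where it was not tested. In cortex it had 35.4, 23.8, 32.4 and 23.8 CPM in diabetic and 25.0, 21.5, 38.2 and 59.3 CPM in control samples, with control 4 highest (-0.32 ± 0.32, adjusted p = 0.541). Crat, which moves acetyl groups onto carnitine, did not pass in either tissue.

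Among the acyl-CoA dehydrogenases, which catalyse the opening step for chains of different length, the short-chain enzyme rose in glomeruli and the very-long-chain enzyme in cortex. Acads (chromosome 5, 115110299 to 115119346) had 65.6, 68.6 and 52.3 CPM in diabetic and 44.9, 43.4 and 41.6 CPM in control glomeruli. The groups were separate, and sample 2 was the highest (0.52 ± 0.12, adjusted p = 0.0136). Without diabetic libraries 1, 3 and 4 the estimate was 0.69. The call was lost without control sample 3+4 (0.48, adjusted p = 0.0528). In cortex Acads was at 232 to 267 CPM in diabetic and 203 to 263 CPM in control samples (0.05 ± 0.09, adjusted p = 0.729).

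Acadvl, which starts the oxidation of long chains at the inner membrane, had 365, 373, 374 and 370 CPM in diabetic and 287, 294, 338 and 295 CPM in control cortex. All diabetic values lay above the highest control, number 3 (0.29 ± 0.07, adjusted p = 0.0141). In glomeruli it was at 111, 83.1 and 108 CPM in diabetic and 123, 115 and 106 CPM in control samples (-0.19 ± 0.13, adjusted p = 0.285). Acadl and Acadm, the long- and medium-chain enzymes, passed in neither tissue, and neither did Acad11. Acadm, the most abundant of the 5 in cortex, had 712 to 940 CPM in diabetic and 849 to 979 CPM in control samples (-0.15 ± 0.09, adjusted p = 0.301).

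Of the 5 genes for the later steps of the mitochondrial cycle, Echs1 and Hadh rose in glomeruli. Echs1, the hydratase for short chains, had 67.7, 55.8 and 51.5 CPM in diabetic and 42, 40.7 and 41.7 CPM in control glomeruli (0.49 ± 0.11, adjusted p = 0.0154, and 0.0508 without control sample 3+4). In cortex the estimate had the other sign, with 227, 205, 191 and 191 CPM in diabetic and 245, 243, 233 and 223 CPM in control samples (-0.22 ± 0.07, adjusted p = 0.0554). It was called lower there with DESeq2 and when control 4 or diabetic 1 was left out (-0.21 to -0.27). Hadh, the hydroxyacyl-CoA dehydrogenase for medium and short chains, had 85.9, 51.5 and 62.4 CPM in diabetic and 45.3, 37.2 and 40.8 CPM in control glomeruli (0.70 ± 0.19, adjusted p = 0.0300). Its groups did not overlap, yet the call was lost when any 1 control sample was left out (0.62 to 0.76, adjusted p = 0.0618 to 0.0879). Without diabetic libraries 1, 3 and 4 the estimate was 0.35. In cortex Hadh was at 485 to 503 CPM in diabetic and 367 to 541 CPM in control samples (0.03 ± 0.11, adjusted p = 0.868). The thiolase gene Acaa2 passed in neither tissue.

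Hadha and Hadhb encode the alpha and beta subunits of the mitochondrial trifunctional protein, which handles long chains, and their starts lie 85 bases apart in the annotation. Hadhb was even, at 225, 212, 220 and 211 CPM in diabetic and 215, 208, 228 and 213 CPM in control cortex (0.01 ± 0.06, adjusted p = 0.949). Hadha was not. It had 37.7, 138, 44.5 and 127 CPM in diabetic and 29.2, 31.2, 126 and 42.6 CPM in control cortex, a high or a low level with nothing between 44.5 and 126 CPM. In glomeruli Hadha was at 157, 137 and 147 CPM in diabetic and 73.1, 161 and 66.0 CPM in control samples, again with 1 control sample at the level of the diabetic ones, beside Hadhb at 83.2, 61.1 and 73.1 CPM and 98.2, 76.4 and 85.6 CPM. Hadha passed in neither tissue (0.56 ± 0.34, adjusted p = 0.234, and 0.60 ± 0.65, 0.571). Without control glomerular sample 2 it was called higher (1.07). The sources used here name no annotation for the counts, so how reads between the paired genes were assigned could not be examined.

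**Figure D2:**
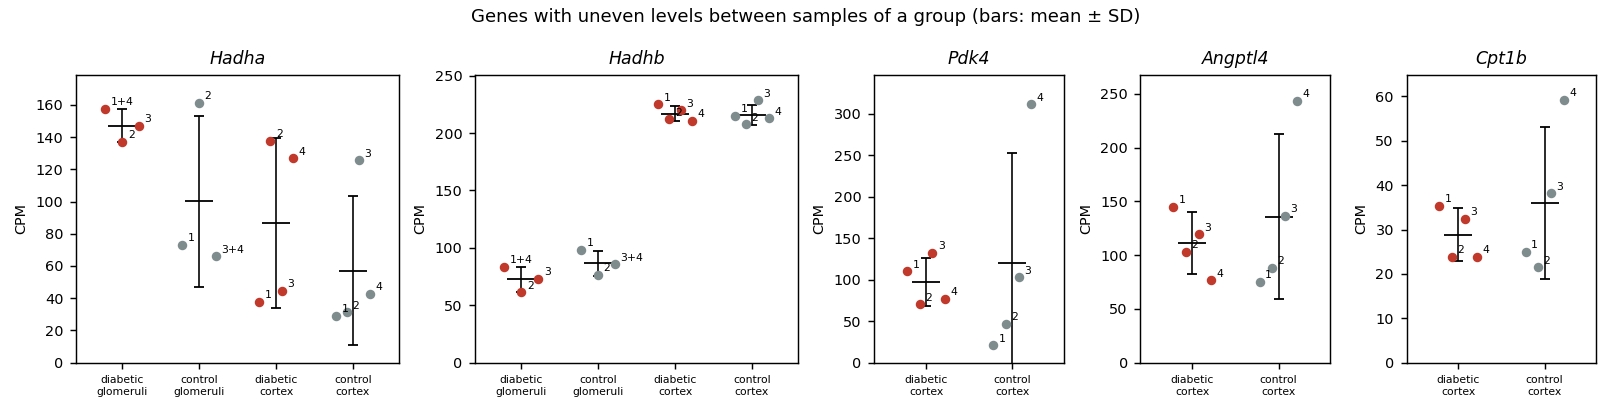
Level in CPM (y axis) of Hadha and Hadhb in diabetic and control glomeruli and cortex, and of Pdk4, Angptl4 and Cpt1b in diabetic and control cortex; points are samples with their numbers, bars are mean ± SD. Hadha fell into a high and a low level within each cortex group while Hadhb stayed between 208 and 228 CPM, and control cortex 4 was the highest sample for Pdk4, Angptl4 and Cpt1b at 312, 244 and 59.3 CPM.

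Of the 3 auxiliary enzymes for unsaturated chains, Eci1 and Decr1 rose in cortex. Eci1, a mitochondrial isomerase that moves double bonds (chromosome 17, 24426641 to 24439348), had 84.8, 92.8, 90.9 and 97.2 CPM in diabetic and 55.8, 59.1, 71.6 and 55.7 CPM in control cortex. The groups were well apart, and this was the smallest adjusted p of the list in cortex (0.59 ± 0.09, 1.51-fold, adjusted p = 0.00175). In glomeruli Eci1 had 26.3, 25.3 and 24.8 CPM in diabetic and 21.3, 21.7 and 18.7 CPM in control samples and was also called higher (0.31 ± 0.10, adjusted p = 0.0406). That call was lost in 5 of 6 fits that left out 1 sample, all but the one without diabetic sample 3 (0.23 to 0.34, adjusted p = 0.0600 to 0.116). Eci2, its relative in both organelles, passed in neither tissue.

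Decr1, the mitochondrial dienoyl-CoA reductase, had 196, 231, 245 and 199 CPM in diabetic and 167, 182, 194 and 158 CPM in control cortex. The lowest diabetic value was just above the highest control (0.32 ± 0.09, adjusted p = 0.0362). The call was lost without control 1 or 2 or diabetic 2 or 3 (0.25 to 0.33, adjusted p = 0.0609 to 0.103). In glomeruli Decr1 was lower in all diabetic samples, at 52.0, 44.8 and 47.9 CPM against 65.4, 52.5 and 56.9 CPM in controls, but did not pass (-0.27 ± 0.11, adjusted p = 0.0887).

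The electron transfer flavoprotein takes up the electrons of the dehydrogenases, and its beta subunit went opposite ways in the tissues. Etfb (chromosome 7, 43444083 to 43457800) had 270, 312, 292 and 314 CPM in diabetic and 209, 232, 223 and 193 CPM in control cortex (0.47 ± 0.08, adjusted p = 0.00295). In glomeruli it had 66.0, 49.4 and 57.8 CPM in diabetic and 79.0, 80.6 and 69.8 CPM in control samples and fell (-0.41 ± 0.12, adjusted p = 0.0401). The glomerular call was lost with library totals (-0.22, adjusted p = 0.203), with FPKM values (-0.22 to -0.23, 0.181 to 0.260) and without control 1 or 2 or diabetic 2 or 3 (adjusted p = 0.0911 to 0.104). Its partner subunit Etfa and the dehydrogenase Etfdh, which delivers the electrons to ubiquinone, passed in neither tissue. Etfa was at 266 to 299 CPM in diabetic and 282 to 328 CPM in control cortex.

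**Figure D3:**
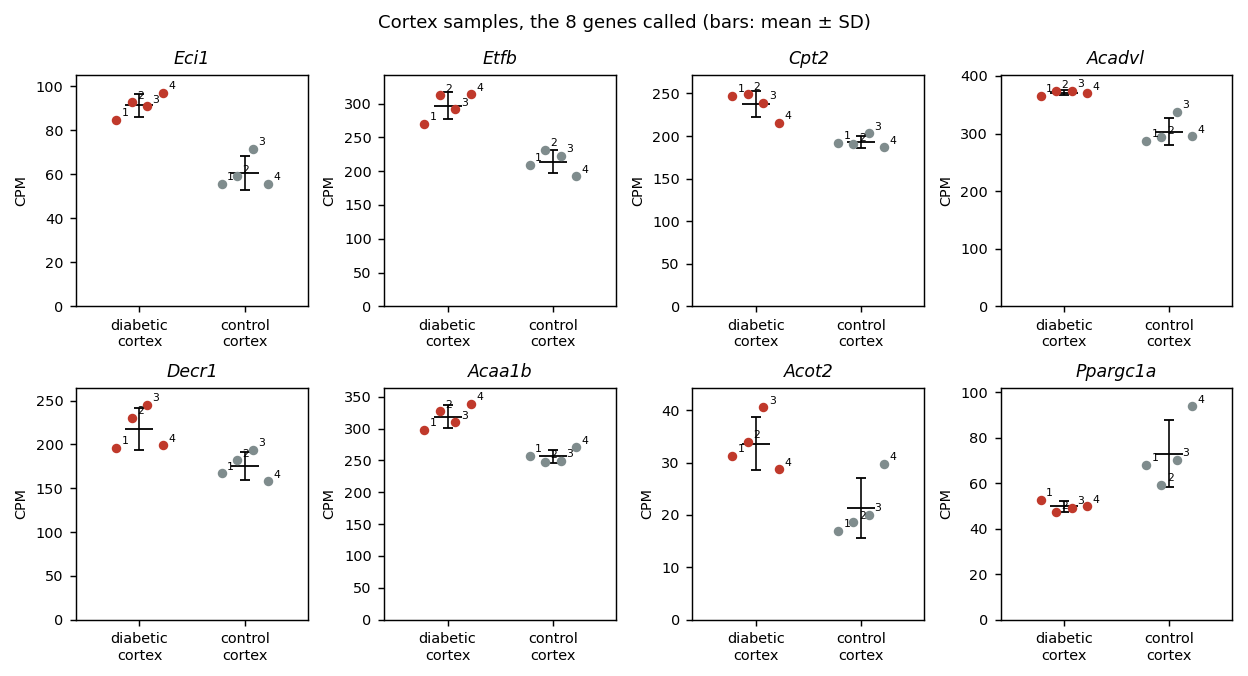
Level in CPM (y axis, from 0) of the 8 genes called in cortex, in diabetic (red) and control (grey) samples with their numbers, and mean ± SD (n = 4 each). In 7 panels the diabetic samples lie above the controls, with overlap in Acot2 through control 4 at 29.8 CPM, and Ppargc1a has them below, at 47.2 to 52.7 CPM against 59.2 to 93.8 CPM.

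The largest change of the list was that of a peroxisomal gene. Acox2, the oxidase for branched chains and bile acid intermediates (chromosome 14, 8225511 to 8259353), had 6.00, 4.63 and 3.22 CPM in diabetic glomerular samples 1+4, 2 and 3, against 0.0806, 0.0529 and 0.0509 CPM in controls, which rested on 2 to 4 counts per control sample. It rose (log2 6.22 ± 0.41, adjusted p = 0.000413). With so few control counts the size of the rise is uncertain. Over the alternatives run the estimate ranged from 1.29 to 6.45. They include log2(FPKM + 1), where the added 1 far exceeds the mean control level of 0.0177 FPKM and so shrinks the change. Sample 2, whose proximal tubule markers summed to 153 CPM, held 4.63 CPM of Acox2, and without diabetic libraries 1, 3 and 4 the estimate was 6.25. In cortex Acox2 had 106, 107, 92.2 and 83.0 CPM in diabetic and 121, 110, 107 and 163 CPM in control samples and did not pass (-0.37 ± 0.14, adjusted p = 0.0939; called lower with DESeq2). Per gene length, diabetic glomeruli stood at 1.52 ± 0.49 FPKM and control glomeruli at 0.0177 ± 0.0044 FPKM (n = 3 each), beside 24.5 ± 2.90 FPKM in diabetic and 31.1 ± 7.87 FPKM in control cortex (n = 4 each), values from tables normalized separately.

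Acaa1b, one of the peroxisomal thiolase genes, had 14.1, 0.639 and 6.65 CPM in diabetic glomerular samples 1+4, 2 and 3 and 0.967, 0.794 and 0.699 CPM in controls (3.13 ± 0.97, adjusted p = 0.0428). Sample 2 lay below all controls, the order of the 3 diabetic samples was that of their tubule markers, and without libraries 1, 3 and 4 the estimate was -0.32. The call was also lost in 5 of 6 fits that left out 1 sample, all but the one without diabetic sample 2 (2.18 to 3.25, adjusted p = 0.0768 to 0.128). In cortex Acaa1b was even and higher, at 298, 327, 309 and 339 CPM in diabetic and 257, 247, 250 and 271 CPM in control samples (0.31 ± 0.06, adjusted p = 0.00780). Its near copy Acaa1a passed in neither tissue, with 145, 151, 140 and 152 CPM in diabetic and 151, 155, 155 and 131 CPM in control cortex. Of the 50-base windows of Acaa1b transcripts 30.5% also occur in Acaa1a, so the split of reads between them is uncertain.

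Ehhadh, the peroxisomal bifunctional enzyme and a standard PPAR-alpha target, had 30.0, 4.73 and 15.7 CPM in diabetic glomerular samples 1+4, 2 and 3, against 8.06, 5.08 and 6.33 CPM in controls. Sample 2 again lay below all controls (1.38 ± 0.60, adjusted p = 0.115). It was called higher with DESeq2, with the 8 libraries kept separate and without diabetic sample 2 (1.84). In cortex it had 1094, 917, 987 and 775 CPM in diabetic and 834, 995, 930 and 970 CPM in control samples (0.02 ± 0.11, adjusted p = 0.937). Acox3, the other branched-chain oxidase, had 47.9, 34.6 and 42.6 CPM in diabetic and 33.0, 33.6 and 32.6 CPM in control glomeruli and did not pass with TMM scaling (0.33 ± 0.13, adjusted p = 0.0759), while with library totals it was called (0.52). Hsd17b4, the other bifunctional enzyme, Decr2, the peroxisomal dienoyl-CoA reductase, and Crot, which makes medium-chain acylcarnitines for export, passed in neither tissue.

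**Figure D4:**
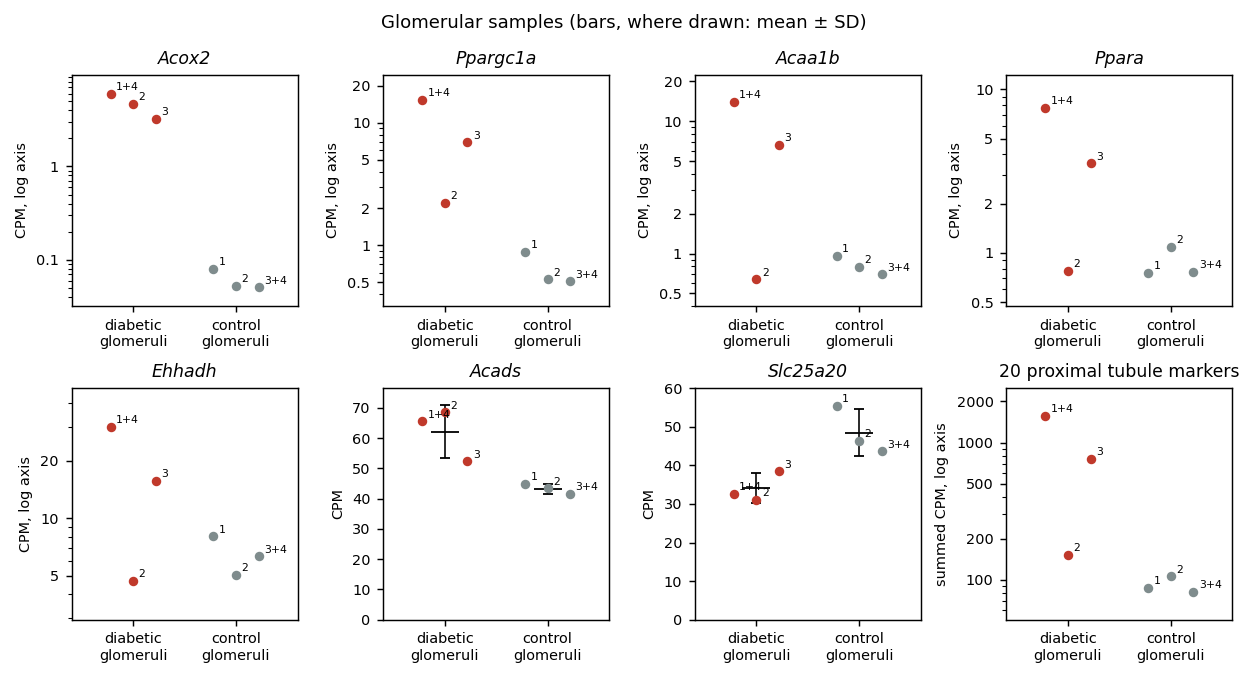
Level in CPM (y axis, logarithmic where labelled) of 7 genes and summed level of 20 proximal tubule markers in diabetic (red) and control (grey) glomerular samples with their numbers (n = 3 each; bars are mean ± SD). For Acaa1b, Ppara and Ehhadh diabetic samples 1+4 and 3 stand above the controls and sample 2 does not, whereas the tubule markers of sample 2, at 153 CPM, lie above the controls but far below the other diabetic samples, and for Acox2, Ppargc1a and Acads all 3 diabetic samples lie above the controls.

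The mitochondrial and peroxisomal enzymes were then set side by side; the difference between the classes was not tested. In glomeruli 4 of 17 mitochondrial genes tested rose and 2 fell, with a median log2 change of 0.16, and 2 of 8 peroxisomal genes rose, with a median of 0.20, beside 19.4% of all genes called higher and 18.2% called lower. In cortex 5 of 18 mitochondrial genes rose, with a median of 0.07, and 1 of 8 peroxisomal genes rose, with a median of -0.06, beside 10.8% of all genes called higher. The median log2 level of the 18 mitochondrial genes relative to the control mean was 0.30, -0.04 and 0.08 in diabetic glomerular samples 1+4, 2 and 3, against 0.08, -0.04 and -0.04 in controls. For the 8 peroxisomal genes these medians were 0.32, -0.21 and 0.18 in diabetic samples and 0.14, -0.05 and -0.02 in controls. In both classes the groups overlapped and sample 2 was the lowest diabetic sample. Without libraries 1, 3 and 4 the median changes were -0.08 for mitochondrial and -0.25 for peroxisomal genes.

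In cortex the sample medians of the mitochondrial class were 0.06, 0.08, 0.03 and 0.02 in diabetic and -0.05, 0.03, 0.10 and -0.10 in control samples. Those of the peroxisomal class were 0.07, -0.02, -0.09 and -0.10 in diabetic and 0.02, 0.02, 0.05 and -0.03 in control samples. Both pairs of groups overlapped. Summed FPKM of the peroxisomal enzymes amounted to 45.6 ± 3.32% of that of the mitochondrial enzymes in diabetic and 48.3 ± 2.83% in control cortex (n = 4 each), and to 20.5 ± 0.400% in diabetic and 21 ± 1.48% in control glomeruli (n = 3 each). In each tissue the groups differed by less than the SD of the control group, and no test was made of these sums. The sums rest on the gene lengths behind the FPKM, which differ between the tissues for some genes, so they are not compared between tissues.

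**Figure D5:**
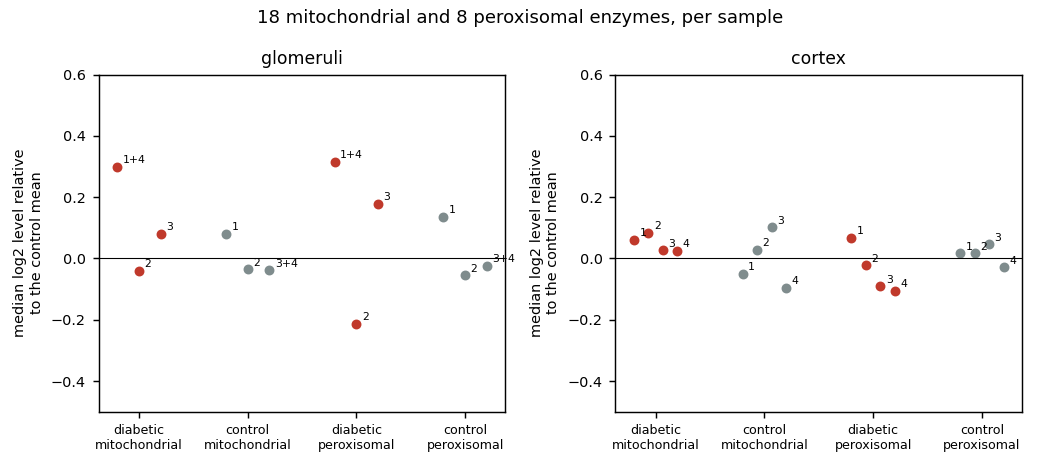
Median over 18 mitochondrial or 8 peroxisomal genes of the log2 level relative to the mean of the control samples (y axis), per sample, in glomeruli (left) and cortex (right), for diabetic (red) and control (grey) samples with their numbers. Diabetic and control samples overlap in both classes and both tissues, and in glomeruli diabetic sample 2 lies lowest among the diabetic samples, at -0.04 and -0.21.

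Ordered by level per gene length, the list in diabetic cortex was led by Ehhadh (297 ± 40.9 FPKM), Etfb (239 ± 20.6), Acadm (197 ± 21.1), Acadl (164 ± 13.7), Acaa2 (156 ± 23.8), Acaa1b (152 ± 10.5) and Etfa (144 ± 8.34, n = 4). In control cortex the leading genes were Ehhadh (286 ± 24.5 FPKM), Acadm (214 ± 19.8), Etfb (168 ± 6.89), Etfa (154 ± 3.61) and Acadl (149 ± 9.63, n = 4), of which the last pair lay closer to each other than the SD of Acadl. Etfb thus stood above Acadm in diabetic and below it in control cortex. Fabp1 was the lowest gene in both, at 0.749 ± 0.516 FPKM in diabetic and 0.326 ± 0.171 FPKM in control cortex. In diabetic glomeruli Etfb stood at 68.1 ± 10.1 FPKM, Acadl at 62.8 ± 4.31, Hadha at 57.8 ± 4.43, Hsd17b4 at 51.2 ± 3.09 and Acadvl at 49.0 ± 7.23 (n = 3). Ehhadh was far lower there, at 5.96 ± 4.57 FPKM. In control glomeruli Etfb stood at 79.2 ± 5.50 FPKM, Acadl at 53.3 ± 5.80, Acadvl at 49.0 ± 2.76 and Ehhadh at 2.01 ± 0.43 (n = 3). The tables were normalized separately, so levels are ordered within a tissue only. The gene lengths behind the FPKM also differed between tissues. Etfa had 62.0 CPM and 6.84 FPKM in diabetic glomeruli but 282 CPM and 144 FPKM in diabetic cortex. For Echs1 these were 58.3 CPM and 41.5 FPKM, against 203 CPM and 23.0 FPKM. The order within a tissue depends on these lengths, which could not be checked.

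Of the genes of uptake, activation and thioester cleavage, Acot2 was called higher in both tissues. Acot2, an acyl-CoA thioesterase of mitochondria that was not counted among the 18 enzymes and carriers above, had 17.3, 15.1 and 14.1 CPM in diabetic and 11.9, 10.5 and 11.1 CPM in control glomeruli (0.47 ± 0.12, adjusted p = 0.0241). In cortex it had 31.3, 34.0, 40.5 and 28.7 CPM in diabetic and 17.0, 18.6, 20.02 and 29.8 CPM in control samples, where control 4 lay within the diabetic range (0.65 ± 0.18, adjusted p = 0.0295). The glomerular call was lost without control 2 or 3+4 or diabetic 1+4 or 2 (0.41 to 0.51, adjusted p = 0.0532 to 0.0736), and the cortex call without control 1, 2 or 3 or diabetic 2 or 3 (0.55 to 0.65, adjusted p = 0.0702 to 0.0800). Its cytosolic neighbour Acot1 had 118, 118, 136 and 105 CPM in diabetic and 71.7, 70.1, 66.5 and 115 CPM in control cortex and missed the threshold (0.56 ± 0.17, adjusted p = 0.0511). It was called without control 4 (0.78). Since 24.5% of the 50-base windows of Acot2 transcripts occur in Acot1, the split of reads between them is uncertain.

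Cd36, a transporter that brings long-chain fatty acids into cells, had 31.4, 12.6 and 18.6 CPM in diabetic and 15.1, 23.8 and 15.1 CPM in control glomeruli (0.22 ± 0.35, adjusted p = 0.658). In cortex it had 489, 443, 407 and 343 CPM in diabetic and 491, 567, 648 and 389 CPM in control samples, which overlap (-0.32 ± 0.16, adjusted p = 0.192), and it was called lower without control 4 (-0.44). Acsl1, which activates long chains to acyl-CoA, had 51.4, 18.1 and 28.0 CPM in diabetic and 23.9, 19.4 and 22 CPM in control glomeruli and passed in neither tissue. Fabp1, the gene with the DR1 letters shown above, had 1 count in all diabetic and 0 in all control glomerular samples. In cortex it was at 0.269, 0.883, 0.329 and 0.308 CPM in diabetic and 0.137, 0.315, 0.293 and 0.0989 CPM in control samples (1.09 ± 0.56, adjusted p = 0.210). The groups overlap, and diabetic cortex 2 is the highest sample.

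Ppargc1a, the coactivator of PPAR-alpha and of mitochondrial biogenesis (chromosome 5, 51454250 to 51567726), was called in both tissues, in opposite directions, and Ppara in neither. In glomeruli it had 15.4, 2.21 and 6.93 CPM in diabetic samples 1+4, 2 and 3, against 0.886, 0.529 and 0.509 CPM in controls. All diabetic samples lay above all controls, with sample 2 nearest to them (3.69 ± 0.73, adjusted p = 0.00944). Without libraries 1, 3 and 4 the estimate was 1.83. With log2(FPKM + 1) the change was 0.63 (adjusted p = 0.0713). Mean levels of 0.674 FPKM in diabetic and 0.0460 FPKM in control glomeruli lie below the added 1, which shrinks the change. The call held with log2(FPKM + 0.1). In cortex Ppargc1a fell, at 52.7, 47.2, 49.3 and 49.9 CPM in diabetic and 68.1, 59.2, 70.4 and 93.8 CPM in control samples (-0.55 ± 0.12, adjusted p = 0.0120). There the proximal tubule markers had a median log2 change of -0.39, and their part in this fall was not tested.

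Ppara itself had 7.71, 0.776 and 3.53 CPM in diabetic glomerular samples 1+4, 2 and 3 and 0.752, 1.08 and 0.763 CPM in controls. Sample 2 lay within the control range, and the gene did not pass (2.22 ± 0.76, adjusted p = 0.0586), though it did with DESeq2 (2.21) and with library totals (2.41). In cortex it was even, at 43.0, 37.2, 34.1 and 36.9 CPM in diabetic and 33.7, 37.8, 35.5 and 38.3 CPM in control samples (0.06 ± 0.08, adjusted p = 0.664).

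Pdk4 and Angptl4, which respond to fasting, did not pass in either tissue. Pdk4, the kinase that shuts off pyruvate dehydrogenase and so favours fat as fuel, had 36.4, 20.1 and 28.3 CPM in diabetic and 38.7, 50.6 and 29.9 CPM in control glomeruli (-0.49 ± 0.26, adjusted p = 0.191). In cortex it had 110, 70.2, 133 and 76.5 CPM in diabetic and 20.7, 46.4, 103 and 312 CPM in control samples, so that the controls span the whole diabetic range (-0.31 ± 0.77, adjusted p = 0.823). Angptl4, a secreted inhibitor of lipoprotein lipase, had 60.8, 59.4 and 134 CPM in diabetic and 59.9, 175 and 50.8 CPM in control glomeruli (-0.17 ± 0.55, adjusted p = 0.834). In cortex it had 145, 103, 120 and 76.7 CPM in diabetic and 75.4, 88.3, 136 and 244 CPM in control samples (-0.29 ± 0.39, adjusted p = 0.652). Control cortex 4 was the highest sample for both, as it was for Cpt1b and Ppargc1a. Without control cortex 4 all 8 cortex calls held and Echs1, Acot1 and Cd36 were called as well, and without control cortex 3 Acot2 was lost.

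Whether the effect of diabetes differed by tissue was tested in 1 model of all 4 groups (glomeruli minus cortex). It passed for 12 of the 38 genes, 8 higher and 4 lower, beside 18.8% and 16.3% of 16267 genes (35.1% in either direction). The mitochondrial genes split evenly. The effect was higher in glomeruli for Acads (0.47 ± 0.15, adjusted p = 0.0229), Echs1 (0.71 ± 0.14, 0.00147), Hadh (0.67, 0.0421) and Etfdh (0.30 ± 0.11, 0.0444). It was lower in glomeruli for Slc25a20 (-0.62 ± 0.16, adjusted p = 0.00807), Acadvl (-0.47 ± 0.15, 0.0227), Decr1 (-0.58 ± 0.16, 0.0107) and Etfb (-0.87 ± 0.15, 0.000700). Of the peroxisomal genes Acox2 (6.62 ± 0.42, adjusted p = 4.25e-07) and Acaa1b (2.87 ± 0.87, 0.0225) differed, and of the regulators Ppara (2.22 ± 0.69, adjusted p = 0.0251) and Ppargc1a (4.31 ± 0.70, 0.000593). Hadh and Etfdh lost this call in 11 and 10 of 14 fits that left out 1 sample (adjusted p = 0.0543 to 0.141 and 0.0611 to 0.176). Acaa1b lost it without diabetic glomerular sample 1+4 or control glomerular sample 2 or 3+4 (1.84 to 2.84, adjusted p = 0.0519 to 0.0792), and Ppara without diabetic glomerular sample 1+4 or control glomerular sample 1 or 3+4 (1.25 to 2.16, adjusted p = 0.0622 to 0.0897). Without libraries 1, 3 and 4 their differences were -0.61 and -0.16. Acads lost it without diabetic glomerular sample 1+4 or 2 (adjusted p = 0.0731 and 0.0717) and Acadvl without control glomerular sample 1 (-0.42, adjusted p = 0.0595).

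Other genes of the pathway were followed as lists. Of 19 further PPAR-alpha targets and ketone genes, 8 of 13 tested rose in glomeruli, beside 19.4% of all genes. Plin2, which coats lipid droplets, had 508, 593 and 514 CPM in diabetic and 181, 230 and 160 CPM in control glomeruli, highest in sample 2 (1.5 ± 0.15, adjusted p = 0.00104). Fgf21, a hormone of the fasting response, had 1.05, 1.05 and 1.29 CPM in diabetic and 0.0806, 0.106 and 0.229 CPM in control glomeruli (2.90 ± 0.43, adjusted p = 0.00326). Vnn1 (3.03 ± 0.48, adjusted p = 0.00421) and the ketone dehydrogenase gene Bdh1 (1.74 ± 0.32, 0.00709) rose too, in all 3 samples. The tubule markers of samples 1+4 and 3 stand beside this list as well.

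In cortex 7 of 17 genes of that list rose and 2 fell, beside 10.8% and 9.29% of all genes. The 7 include Cyp4a14, which was added after its values were seen, so the share that rose is partly built in. The mitochondrial carrier gene Ucp2 had 221, 293, 324 and 259 CPM in diabetic and 80.5, 92.5, 105 and 101 CPM in control samples (1.53 ± 0.12, adjusted p = 0.000142), beside macrophage markers that summed to 505 to 778 CPM in diabetic and 206 to 365 CPM in control cortex. Retsat (0.44 ± 0.06, adjusted p = 0.00128) and Vnn1 (0.57 ± 0.09, 0.00203) rose as well. Cyp4a14, an omega-hydroxylase gene added here after its values were seen and uncertain because of its close copies, had 348, 511, 735 and 535 CPM in diabetic and 72.2, 71.8, 76.7 and 163 CPM in control cortex (2.47 ± 0.35, adjusted p = 0.00311).

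Of 15 further genes of uptake and activation, 8 of 14 tested rose and 2 fell in glomeruli (19.4% and 18.2% of all genes), and 2 of 15 rose and 5 fell in cortex (10.8% and 9.29% of all genes). Fabp5, a fatty acid carrier, fell to 17.8, 21.2 and 17.7 CPM in diabetic glomeruli, against 88.5, 90.6 and 79.3 CPM in controls (-2.19 ± 0.11, adjusted p = 0.000320), and the transporter gene Slc27a4 fell by 0.47 on the log2 scale (SE 0.08, adjusted p = 0.00520). The synthetase genes Acsl6 (3.74 ± 0.53, adjusted p = 0.00268) and Acsl4 (0.45 ± 0.10, 0.0119) rose there. In cortex the synthetase genes Acsl3 (-0.79 ± 0.09, adjusted p = 0.000510), Acsm5 (-0.50 ± 0.07, 0.00174) and Acsm3 (-0.96 ± 0.16, 0.00304) fell, and Dbi, the acyl-CoA binding protein gene, rose (0.46 ± 0.07, adjusted p = 0.00278). For Acsl3 the effect differed between tissues, by 1.55 ± 0.18 (adjusted p = 3.95e-05).

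Of 15 further genes of mitochondrial acyl-CoA breakdown, which include branched amino acid and propionate enzymes, 3 rose in glomeruli, a share near the 19.4% of all genes, and 6 fell in cortex, beside 9.29% of all genes, while the other 12 and 9 did not pass. Ivd, the isovaleryl-CoA dehydrogenase, had 412, 339, 305 and 311 CPM in diabetic and 539, 597, 537 and 503 CPM in control cortex (-0.67 ± 0.10, adjusted p = 0.00215). Pcca fell in cortex (-0.44 ± 0.08, adjusted p = 0.00368), as did Mut (-0.49 ± 0.09, 0.00520) and Acadsb (-0.46 ± 0.09, 0.00799), beside proximal tubule markers of which 11 of 20 fell. In glomeruli Acad10 (0.82 ± 0.22, adjusted p = 0.0263) and Pcca (0.49 ± 0.15, 0.0392) rose. Acacb, also counted in this list, rose too (1.82 ± 0.56, adjusted p = 0.0423). It encodes a carboxylase that makes malonyl-CoA and is not a breakdown enzyme.

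Of 30 further peroxisomal genes, 3 of 29 tested rose and 6 fell in glomeruli, below and near the 19.4% and 18.2% of all genes, and 5 rose and 2 fell in cortex, beside 10.8% and 9.29%. The import receptor gene Pex19 fell in glomeruli (-0.55 ± 0.08, adjusted p = 0.00282), and Pex11g rose (1.04 ± 0.23, adjusted p = 0.0137). In cortex Ech1, a dienoyl-CoA isomerase gene, had 485, 505, 504 and 487 CPM in diabetic and 378, 382, 405 and 372 CPM in control samples (0.37 ± 0.06, adjusted p = 0.00278). Pxmp4 (0.22 ± 0.06, adjusted p = 0.0231) and Acot8 (0.23 ± 0.06, 0.0254) rose and Pex7 fell (-0.24 ± 0.06, adjusted p = 0.0256).

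Of 18 nuclear receptors and coregulators, 3 of 17 tested rose in glomeruli (Nrip1, Esrrg and Hnf4a) and 4 of 18 fell in cortex (those 3 and Ncoa1), beside 19.4% of all genes called higher in glomeruli, a like share, and 9.29% called lower in cortex. Nrip1, a corepressor of nuclear receptors, had 106, 122 and 139 CPM in diabetic and 39.5, 45.6 and 63.5 CPM in control glomeruli (1.30 ± 0.20, adjusted p = 0.00355), and 20.2, 23.0, 23.2 and 21.8 CPM in diabetic and 30.1, 32.1, 30.5 and 33.7 CPM in control cortex (-0.52 ± 0.07, adjusted p = 0.00121). Esrrg, an estrogen-related receptor, had 13.2, 3.58 and 5.91 CPM in diabetic and 0.591, 0.238 and 0.534 CPM in control glomeruli (4.04 ± 0.61, adjusted p = 0.00356), and fell in cortex (-0.32 ± 0.06, adjusted p = 0.00450). Hnf4a, a factor of tubule and liver epithelium, had 28.9, 1.26 and 11.8 CPM in diabetic samples 1+4, 2 and 3 and 1.29, 1.08 and 0.903 CPM in control glomeruli (3.69 ± 1.00, adjusted p = 0.0286), in the order of the tubule markers. It fell in cortex (-0.39 ± 0.10, adjusted p = 0.0173), as did Ncoa1 (-0.28 ± 0.08, 0.0277).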

How the data were processed

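The 16 libraries, 4 per group, were each prepared from 1.3 micrograms of RNA (SMARTER mRNA-Seq, per the labels), and the builds GRCm38 and mm10 are named in the submitters' processing notes. The sources used here name no aligner, counter or strand setting. The authors deposited whole-number counts per gene for glomeruli, and for cortex estimated counts made whole. FPKM values were deposited beside both and used only for levels per gene length and as alternatives. Of the cortex identifiers 31953 were matched to GENCODE M21 symbols and 2311 were not.

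Counts were tested with edgeR 4.0.16 (R 4.3.3; filterByExpr, TMM scaling, robust quasi-likelihood test, Benjamini-Hochberg adjustment over all genes tested, threshold 0.05), separately per tissue. The difference between tissues was tested in 1 model over 18751 genes joined by symbol. Alternatives used DESeq2 1.42.0 and limma 3.58.1 on log2(FPKM + 1) and log2(FPKM + 0.1). The steps were tested on simulated data. Diabetic glomerular libraries 1 and 4 and control glomerular libraries 3 and 4 had chi-square values per gene of 6.69 and 2.76, against 45.7 to 97.9 for the other glomerular pairs. They differed by more than sampling noise but far less than the others, so each pair was summed and counted as 1 sample. Standard errors were worked out from the fold change and the test statistic and are rough for genes with few counts. Counting error limits the precision of low genes such as Fabp1, and of Acox2 in control glomeruli.

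All 38 genes are named. Values per sample are given for called genes and for Ppara, Ppargc1a, Cpt1a, Cpt2, Ehhadh, Acaa1b, Pdk4, Angptl4, Cd36 and Fabp1. Of each further list up to 4 genes with the smallest adjusted p per comparison are named. Some of these are not reported here. The genes and lists were chosen with earlier results of these data known.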

Additional observations from a re-analysis of the deposited data

Results flagged for a closer look

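In 7 of 76 groups of 4 cortex samples (38 genes in each cortex group), the gap of 1 sample to its nearest neighbour exceeded Dixon's 95% critical value, which chance passes in about 1 of 20 groups. The groups are not independent, since 6 of the 7 samples are control cortex 3 or 4. Acadvl was high in control cortex 3, at 338 CPM with the next at 295 CPM, and so was Hadha, at 126 CPM with the next at 42.6 CPM. Control cortex 4 was low for Acaa2 (195 CPM, next 232 CPM), Acox3 (282 CPM, next 385 CPM) and Hsd17b4 (226 CPM, next 252 CPM), and high for Acot1 (115 CPM, next 71.7 CPM). Fabp1 was high in diabetic cortex 2, at 0.883 CPM with the next at 0.329 CPM.

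The diabetic effect differed between glomeruli and cortex (edgeR, glomeruli minus cortex, log2) for Acox2 by 6.62, Ppargc1a by 4.31, Acaa1b by 2.87, Ppara by 2.22, Echs1 by 0.71, Hadh by 0.67, Acads by 0.47 and Etfdh by 0.30. The differences were -0.87 for Etfb, -0.62 for Slc25a20, -0.58 for Decr1 and -0.47 for Acadvl.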

How the results depend on the processing

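Over all genes, calls in glomeruli were 5717, and 2293 without diabetic libraries 1, 3 and 4, where the only remaining diabetic sample is assumed to vary like the controls. There the median log2 changes were -0.0836 (mitochondrial) and -0.251 (peroxisomal). With those libraries left out Acaa1b was at -0.32, and the tissue differences of Acaa1b and Ppara were -0.61 and -0.16. Genes of the list called lower in glomeruli numbered 0 with library totals (edgeR) and with log2(FPKM + 1), log2(FPKM + 0.1) and log2(FPKM + 1) unfiltered (limma). They numbered 2 with DESeq2 and 4 with the 8 libraries separate. At an unadjusted p under 0.05 edgeR with TMM had 4 of the list lower. The mitochondrial median of 0.159 was 0.347, 0.301, 0.31 and 0.269 with library totals and these FPKM settings, and the peroxisomal median of 0.199 was 0.388, 0.334, 0.374 and 0.334. In cortex calls over all genes were 3856, 2401 with unfiltered FPKM and 2375 with the replicate block. Genes of the list called lower there were 1, 3 with DESeq2 and 0 with unfiltered FPKM (limma), and the peroxisomal median of -0.0557 was -0.0107, -0.0192, -0.0198 and -0.0192. Tissue differences over all genes were 5705, and 3695 without libraries 1, 3 and 4, with 4 of the list higher and 7 lower. The causes were not tested. The counts of calls without libraries 1, 3 and 4 rest on 1 diabetic glomerular sample whose own spread is unknown. They are not tested results, and no shift between genes called higher and lower is read from them. Leaving out 1 sample gave 3911 to 5237 calls in glomeruli, 2528 to 4715 in cortex and 4829 to 5757 differences. Of the list it gave 2 to 9 higher and 0 to 2 lower in glomeruli, 5 to 8 and 1 to 3 in cortex, and 3 to 9 and 3 to 5 for the difference. Medians ranged from 0.0367 to 0.221 (mitochondrial) and 0.161 to 0.267 (peroxisomal) in glomeruli, and from 0.0442 to 0.119 and -0.108 to -0.00283 in cortex. Same-numbered correlations between groups ran from -0.201 to 0.136, and the best match had the same number for some samples and another number for the rest. Such weak correlations cannot decide whether same-numbered libraries are paired, and the main fits treat all samples as independent. With the replicate block 12 and 3 of the list were called higher and lower in glomeruli and 5 and 1 in cortex, where Acadvl had an adjusted p of 0.050. Shares of all genes by direction are not given for the alternatives, so these counts of the list are not read against a background. Over the alternatives run, called genes kept their call in 103 of 150 settings in glomeruli, 106 of 120 in cortex and 202 of 240 for the difference. The counts for glomeruli and for the difference include the fits that leave 1 diabetic glomerular sample. Acox2 in glomeruli, Cpt2, Eci1, Etfb and Acaa1b in cortex, and Slc25a20, Echs1, Decr1, Etfb, Acox2 and Ppargc1a for the difference were called under every alternative run.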
